A study of Mus musculus with 6 samples.

Results

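The 8 genes described here are small nucleolar RNA (snoRNA) host genes: Gas5, Snhg1, Snhg3, Snhg5, Snhg6, Snhg8, Snhg12 and Snhg15. They were chosen by symbol, through the Ensembl gene ID of each row, in a table of 16665 genes measured in a mouse macrophage line given a miR-125b mimic or a negative control. Of the 8, 7 had a row, and Snhg3 was not analysed here because it has no row in the table used. All 7 reached a mean of 1 FPKM over the libraries and so belonged to the 10166 genes tested. FPKM is the number of sequenced fragments scaled to the length of a gene's exons and to the size of the library.

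A snoRNA host gene is transcribed as a spliced RNA whose introns hold snoRNAs. The snoRNAs are freed from the introns and, with their partner proteins, guide ribose methylation (box C/D class) or pseudouridylation (box H/ACA class) of ribosomal and other RNAs, while the joined exons leave as a separate noncoding RNA. Many of these exon RNAs begin with a run of pyrimidines like that of ribosomal protein mRNAs (a terminal oligopyrimidine, or TOP, start), are bound by ribosomes, and are removed by nonsense-mediated decay. Gas5 was named for its rise in growth-arrested cells.

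The cells were RAW 264.7, a mouse monocyte and macrophage leukemia line. Libraries were made from total RNA with a SMARTER mRNA-Seq kit. In 3 samples the cells were transfected with a miR-125b mimic (an RNA that stands in for the mature microRNA; genotype label, miR-125b overexpression). In the other 3 they were transfected as NC, taken here as the negative control (genotype label, miR-125b WT). The dose, the time after transfection, the arm of miR-125b held by the mimic and the level of mature miR-125b do not appear in the labels, and all samples come from 1 cell line. The labels do not say whether a group's samples were separate cultures, so each p-value reflects only how far these samples scatter, which may be technical. The libraries are called control 1 to 3 and mimic 1 to 3 by the numbers of their titles.

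Depth worked out from the smallest FPKM steps was 14450000 to 16810000 fragments per library. Control 3 stood apart, with 13266 genes above 0 against 15141 to 15470 in the other 5 libraries. The 8 macrophage markers checked all had a row and summed to 7007 to 8461 FPKM in the controls and 6261 to 6506 FPKM in the mimic libraries. Markers of fibroblasts, epithelium, T cells, B cells and granulocytes summed to at most 0.726 FPKM in any library. Across all 10166 tested genes, limma (a linear model with a shared estimate of the spread) called 0 at a Benjamini-Hochberg adjusted p under 0.05, and 1344 had an unadjusted p under 0.05. With voom on the recovered fragments, 0 were called and 1393 had an unadjusted p under 0.05. The smallest adjusted p of any gene was 0.289.

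The host genes are best read with their introns in view, because the table holds 0 snoRNA rows. GENCODE M21 on GRCm38 places 28 snoRNA loci in introns of the 8 genes. Gas5 has 9, Snhg1 has 8, Snhg12 has 4, Snhg3 and Snhg5 have 2 each, and Snhg6, Snhg8 and Snhg15 have 1 each. A search of each locus for TGATGA followed by CTGA (the C and D boxes) found both in 16 loci, ACA near the 3′ end was found in 6 others, and 6 held neither exact form. The sequences below are 1 snoRNA from each measured host but Snhg1, whose named Snord22 held neither exact form. They are printed 5′ to 3′ on the strand of the gene, with the boxes in capitals, to show what each host carries.
Snord47, in Gas5, chr1:161038082-161038158, plus strand: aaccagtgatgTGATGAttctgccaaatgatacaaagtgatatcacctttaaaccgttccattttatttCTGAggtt
Snord50a, in Snhg5, chr9:88521529-88521600, minus strand: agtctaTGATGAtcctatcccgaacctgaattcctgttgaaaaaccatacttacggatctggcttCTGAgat
Snord87, in Snhg6, chr1:9942463-9942549, minus strand: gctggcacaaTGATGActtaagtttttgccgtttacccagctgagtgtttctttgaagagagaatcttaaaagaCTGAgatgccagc
Snord99, in Snhg12, chr4:132310691-132310764, plus strand: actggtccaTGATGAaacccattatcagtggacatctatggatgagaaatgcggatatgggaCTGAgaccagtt
Snora24, in Snhg8, chr3:123507937-123508066, minus strand: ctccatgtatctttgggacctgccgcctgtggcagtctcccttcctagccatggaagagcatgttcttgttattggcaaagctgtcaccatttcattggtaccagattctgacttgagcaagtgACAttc
Snora9, in Snhg15, chr11:6528033-6528165, minus strand: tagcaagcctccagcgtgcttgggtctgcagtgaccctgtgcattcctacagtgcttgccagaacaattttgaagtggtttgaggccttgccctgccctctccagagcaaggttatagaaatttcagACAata

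Gas5, Snhg5 and Snhg6 thus carry box C/D snoRNAs by these letters, Snhg8 and Snhg15 carry box H/ACA snoRNAs, and Snhg12 carries both classes. Gas5 and Snhg1 have many annotated transcripts that keep an intron, 20 of 25 and 14 of 18, out of 38 of 76 over the 8 genes. Snhg5 has 3 of 6 and Snhg8 has 1 of 3, while Snhg3, Snhg6, Snhg12 and Snhg15 have 0. Where a snoRNA lies in such a kept intron, its bases fall inside an annotated exon of the host. Which transcripts the FPKM values were counted over is not stated in the labels.

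In these cells Snhg6 was the most abundant of the 7 per length of exon, at a mean of 52.7 FPKM over the 6 libraries, and Snhg12 the least, at 6.38 FPKM. Between them came Snhg1 at 32.6, Gas5 at 29.2, Snhg8 at 19.5, Snhg15 at 16.1 and Snhg5 at 10.7 FPKM. Snhg6 lay above Snhg1, Gas5 above Snhg8, and Snhg5 above Snhg12, in 6 of 6 libraries. The order of Snhg1 and Gas5 held in 4 of 6 libraries, that of Snhg8 and Snhg15 in 4, and that of Snhg15 and Snhg5 in 5, so these neighbours overlapped. The order depends on the annotated exon length, 1146 bases for Snhg6 against 2969 for Snhg1 and 3760 for Gas5. In fragments per library, Snhg6 had 637 to 1409, Snhg1 1280 to 1791 and Gas5 1378 to 2045.

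Gas5 was the only one of the 7 host genes whose mimic libraries all lay below all controls. None of the 7 passed an adjusted p of 0.05 (0% of all tested genes did). The median log2 fold change of the 7, mimic minus control, was 0.016, beside 0.041 over all tested genes, with 4 higher and 3 lower. Fold changes are differences of log2(FPKM + 1), a scale that understates the change of low genes. In bulk RNA, fewer cells with a transcript and less of it per cell cannot be told apart.

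**Figure D1:**
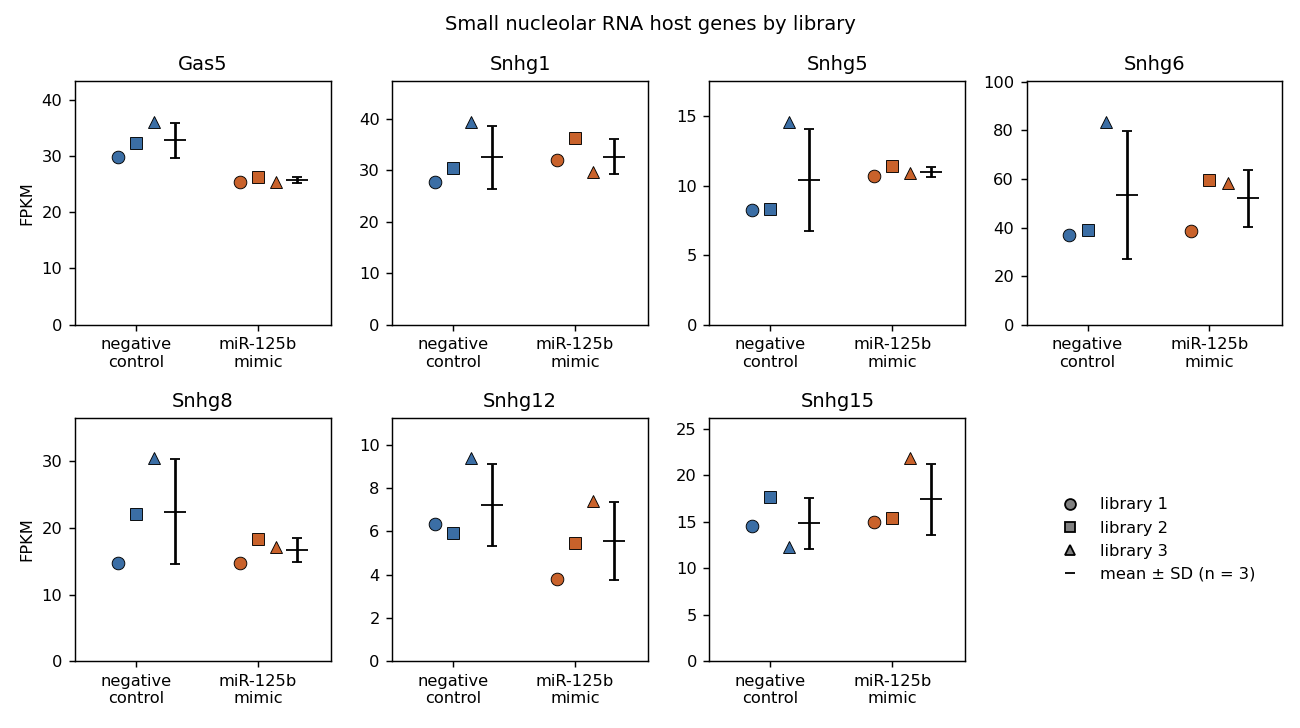
FPKM of each host gene in each library, 1 panel per gene with its own axis from 0; point shapes give the library number and the bar is the mean ± SD of 3 libraries. Gas5 is the 1 gene whose groups do not overlap (25.4 to 26.3 FPKM with the mimic, 29.9 to 36.1 in the controls), and control 3 is the highest point in 6 of 7 panels.

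Gas5 (ENSMUSG00000053332, chr1:161034422-161038539, plus strand, 3760 exon bases) was at 29.9, 32.3 and 36.1 FPKM in controls 1 to 3 and at 25.4, 26.3 and 25.4 FPKM in mimics 1 to 3. The mimic libraries lay within 1 FPKM of each other and below the lowest control. The means were 32.8 ± 3.15 and 25.7 ± 0.5 FPKM (SD, n = 3 each), a ratio of 0.784, from 1378 to 2045 fragments per library. The log2 fold change was -0.34 (SE 0.11, 95% interval -0.6 to -0.07), with limma's unadjusted p at 0.0185 and adjusted p at 0.332. Of all tested genes, 5.26% were lower at an unadjusted p under 0.05, and 7.49% were lower with groups that did not overlap. Of the 7 host genes, 1 met each of these (Gas5), and no host gene was among the 12.6% of genes that were higher without overlap.

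Snhg1 (ENSMUSG00000108414, chr19:8723475-8726443, plus strand, 2969 exon bases) is the host of a large box C/D cluster. It was at 27.6, 30.4 and 39.4 FPKM in the controls and 31.9, 36.3 and 29.6 FPKM with the mimic. The highest value was control 3 and the lowest control 1, so the mimic libraries lay inside the range of the controls. The means were 32.5 ± 6.13 and 32.6 ± 3.44 FPKM (SD, n = 3 each), with a log2 fold change of 0.016 (95% interval -0.35 to 0.38, limma adjusted p = 0.977).

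Snhg5 (ENSMUSG00000097195, chr9:88521050-88522929, minus strand, 1730 exon bases), which carries the Snord50 pair, was at 8.28, 8.33 and 14.6 FPKM in the controls and 10.7, 11.4 and 10.9 FPKM with the mimic. The mimic values were tight and lay between controls 1 and 2 on one side and control 3 on the other. The means were 10.4 ± 3.63 and 11 ± 0.331 FPKM (SD, n = 3 each), with a log2 fold change of 0.12 (95% interval -0.37 to 0.61, limma adjusted p = 0.825).

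Snhg6 (ENSMUSG00000098234, chr1:9941959-9944118, minus strand, 1146 exon bases), host of Snord87, was at 37.0, 39.1 and 83.6 FPKM in the controls and 38.5, 59.6 and 58.2 FPKM with the mimic. Control 3 was 2.19 times the mean of controls 1 and 2, the widest such gap among the 7 genes. The means were 53.3 ± 26.3 and 52.1 ± 11.8 FPKM (SD, n = 3 each), and the log2 fold change of 0.045 had a 95% interval of -0.72 to 0.81 (limma adjusted p = 0.966). Of the exon bases of Snhg6, 127 are shared with Mcmdc2 on the other strand, a gene at no more than 0.0603 FPKM in any library. Mcmdc2 was named after its values were seen.

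Snhg12 (ENSMUSG00000086290, chr4:132308623-132311024, plus strand, 2402 exon bases), the host with both snoRNA classes, was at 6.33, 5.92 and 9.37 FPKM in the controls and 3.8, 5.47 and 7.39 FPKM with the mimic. It rested on few fragments, 132 in mimic 1 and 331 in control 3, and its groups overlapped. By library number it was lower with the mimic in 3 of 3 pairs, as was Gas5, beside 16.2% of all tested genes. The means were 7.2 ± 1.89 and 5.55 ± 1.79 FPKM (SD, n = 3 each), with a log2 fold change of -0.34 (95% interval -0.91 to 0.23, limma adjusted p = 0.557, or 0.311 with the library number as a block).

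Snhg8 (ENSMUSG00000104960, chr3:123507552-123508404, minus strand, 853 exon bases), host of Snora24, was at 14.7, 22.1 and 30.4 FPKM in the controls and 14.7, 18.3 and 17.1 FPKM with the mimic. The controls ran from 14.7 to 30.4 FPKM, a wider range than that of the mimic libraries, which lay at its lower end. The means were 22.4 ± 7.86 and 16.7 ± 1.84 FPKM (SD, n = 3 each), with a log2 fold change of -0.35 (95% interval -0.92 to 0.22, limma adjusted p = 0.547). That estimate was as large as the one for Gas5, but its interval was wider and included 0.

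Snhg15 (ENSMUSG00000085156, chr11:6525591-6528760, minus strand, 1359 exon bases), host of Snora9, was at 14.5, 17.7 and 12.3 FPKM in the controls and 15, 15.4 and 21.8 FPKM with the mimic. Mimic 3 was the highest library and control 3 the lowest, the reverse of the other genes for control 3. The means were 14.8 ± 2.68 and 17.4 ± 3.81 FPKM (SD, n = 3 each), with a log2 fold change of 0.21 (95% interval -0.23 to 0.65, limma adjusted p = 0.64).

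Control 3 held the highest value of the 6 libraries for 6 of the 7 host genes (85.7%), and the lowest for the other 1, Snhg15. Over all tested genes control 3 was highest in 17.3%. Among tested genes with no more exon bases than Gas5 it was highest in 19.5% (863 of 4422), and among tested long noncoding RNA genes in 28.3% (161 of 569). Control 3 stood at 1.16 times the mean of controls 1 and 2 for Gas5, 1.36 for Snhg1, 1.53 for Snhg12, 1.65 for Snhg8, 1.76 for Snhg5, 2.19 for Snhg6 and 0.768 for Snhg15. Control 3 was the lowest of the 6 libraries for 37.2% of all tested genes and for 23.9% of tested long noncoding RNA genes. Control 3 also had the fewest genes above 0, and the part of that in these ratios was not tested.

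**Figure D2:**
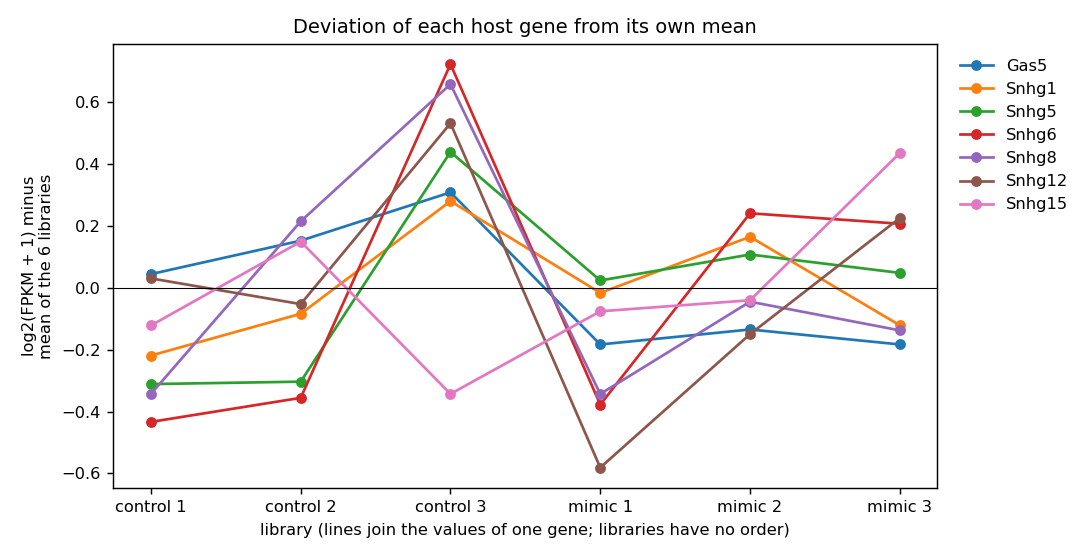
Deviation of each host gene from its own mean over the 6 libraries, on the log2(FPKM + 1) scale; each line is 1 gene, and the libraries have no order. At control 3 the lines of 6 genes reach their highest point, and that of Snhg15 its lowest.

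Because control 3 differed from the other libraries, each estimate was also made without it. Gas5 was then lower at -0.27 (limma adjusted p = 0.0462) and Snhg5 was higher at 0.37 (adjusted p = 0.0237). With 12.2% of all tested genes called lower and 11.6% called higher in that fit, 1 of 7 in each direction was close to the background. Snhg6 went from 0.045 to 0.42 (adjusted p = 0.152) and Snhg1 from 0.016 to 0.16 (adjusted p = 0.308), while Snhg8 went from -0.35 to -0.11 (adjusted p = 0.681) and Snhg12 from -0.34 to -0.16 (adjusted p = 0.636). Snhg15 was at 0.096 (adjusted p = 0.717), and the median of the 7 was 0.096. That median turned negative without control 1 (-0.16), control 2 (-0.12), mimic 2 (-0.064) or mimic 3 (-0.047). Down-weighting the libraries by their spread instead called 2 host genes, Gas5 at -0.28 and Snhg5 at 0.35, in a fit that called 47.3% of all tested genes.

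Library values also varied with exon length and GC content, and the host genes are short, with a median of 1730 exon bases against 4252 over the tested genes and a median GC content of 45.1% against 49%. With that trend taken out of each library, Gas5 was at -0.48 (limma adjusted p = 0.422) and Snhg15 at 0.39 (adjusted p = 0.512), while Snhg1 moved to -0.14 and Snhg6 to -0.049. On this scale the mimic libraries of Snhg15, at 4.07 to 4.63 in log2 units, lay above its controls, at 3.75 to 4, and those of Gas5 lay below. Over all genes on this scale, 8.42% were higher and 8.2% lower without overlap, so 1 of 7 host genes in each direction was not far from the background. Control 3 was still highest for 6 of 7 host genes, beside 29.3% of all genes. With the trend removed and control 3 left out together, Gas5 was called lower at -0.46 (adjusted p = 0.0379) and no other host gene was called; 2.79% of all genes were called lower in that fit. Snhg5 was then at 0.34 (adjusted p = 0.0788).

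**Figure D3:**
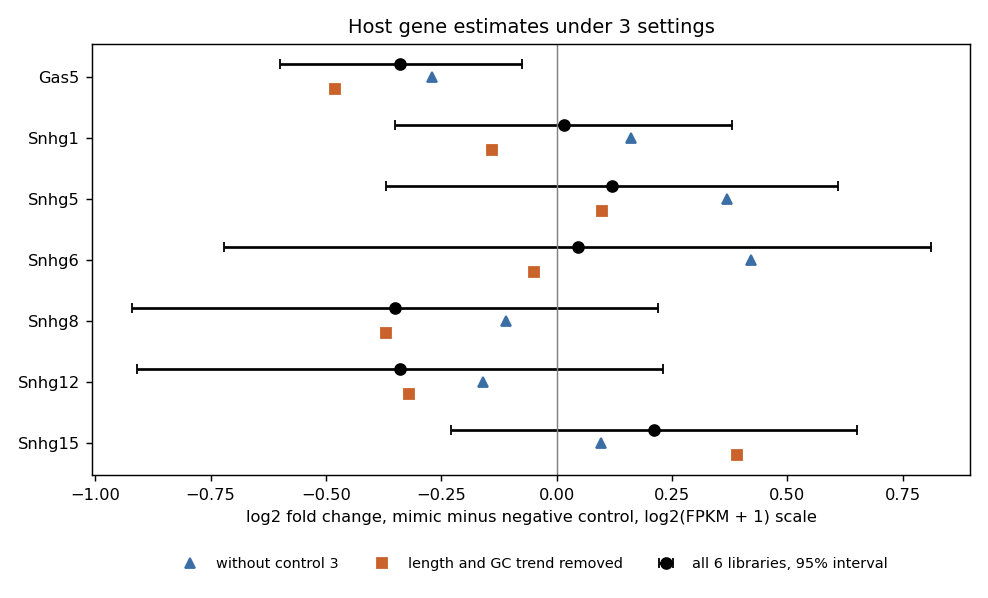
Log2 fold change of each host gene, mimic minus negative control, with all 6 libraries (black, 95% interval), without control 3 (triangles) and after removal of the trend with length and GC (squares). The Gas5 estimates lie at -0.34, -0.27 and -0.48; those of Snhg1 and Snhg6 lie on both sides of 0.

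The host genes varied together in part. Over the 6 libraries, 10 of the 21 pairs of host genes had a Pearson r above 0.5 and the median r was 0.42. Without control 3 the values were 6 pairs and 0.26, and r ran from -0.93 (Gas5 with Snhg5) to 0.75 (Snhg5 with Snhg6). These r describe values that share libraries. The mean standardised profile of the 7 was -0.61, -0.08 and 1.14 in controls 1 to 3 and -0.64, 0.06 and 0.14 in mimics 1 to 3, so it was high in control 3 and low in the libraries numbered 1. Among the other tested genes most like this profile over 6 libraries were Mt1 (r = 0.994), which encodes a metallothionein, Atox1 (r = 0.989), a copper chaperone, Ndufb5 (r = 0.978), a subunit of respiratory complex I, and Sec61g (r = 0.978), a subunit of the endoplasmic reticulum translocon. Without control 3 the r of these 4 ran from 0.915 for Ndufb5 to 0.986 for Mt1. These genes were picked for the highest r over the same libraries, so neither set of r is a separate check of the likeness.

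Promoter sequence was compared to describe what the host genes share besides their names. RefSeq start sites on GRCm38.p6 were matched for 7 of the 8 genes by symbol (not Snhg6). A TOP-like start was scored as a C within 5 bases of the start site followed by at least 4 C or T, read on the strand of the gene. It was present in 4 of the 7 genes with a promoter (57.1%), namely Gas5, Snhg3, Snhg8 and Snhg12, and in 21.2% of 27025 genes with a promoter. Each window below holds the 25 bases before the start site and 35 from it, 5′ to 3′, with the scored run in capitals; the Gas5 window is at the downstream of its 2 start sites, and the upstream one held no run.
Gas5, chr1:161035141-161035200, plus strand: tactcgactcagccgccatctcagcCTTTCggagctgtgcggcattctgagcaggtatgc
Snhg8, chr3:123508302-123508361, minus strand: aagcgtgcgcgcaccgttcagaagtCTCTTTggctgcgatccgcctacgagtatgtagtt
Snhg12, chr4:132308653-132308712, plus strand: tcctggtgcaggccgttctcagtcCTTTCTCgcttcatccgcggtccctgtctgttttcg
Snhg1, chr19:8723462-8723521, plus strand: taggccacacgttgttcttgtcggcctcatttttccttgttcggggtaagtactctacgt
Snhg5, chr9:88522863-88522922, minus strand: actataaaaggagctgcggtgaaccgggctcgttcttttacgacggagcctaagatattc
Snhg15, chr11:6528726-6528785, minus strand: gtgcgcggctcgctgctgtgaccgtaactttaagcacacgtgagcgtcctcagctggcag

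The 3 measured genes with the scored run, Gas5, Snhg8 and Snhg12, were the 3 with a negative log2 fold change (-0.34, -0.35 and -0.34), and Snhg1, Snhg5 and Snhg15 without a scored run were at 0.016, 0.12 and 0.21. This was seen after the values were known and was not tested, and the sign of Snhg1, Snhg5 and Snhg15 changed under at least 1 other setting each. The windows are short, and only a C within 5 bases of the start site was scored. A run elsewhere in the windows or outside them was not searched for. The printed Snhg5 window holds CTTTT downstream of that limit. The place of Snhg5 among the genes without a scored run therefore rests on the limit.

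The miR-125b seed was also looked for in the host transcripts. The mature miR-125b-5p from RefSeq is printed with its seed, bases 2 to 8, in capitals, and below it are the 2 sites found in the host genes, with the matching bases in capitals.
miR-125b-5p: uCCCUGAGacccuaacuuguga
Gas5, chr1:161034946-161034953, plus strand: agcctgtactcCTCAGGGAggcggagggcg
Snhg12, chr4:132308883-132308889, plus strand: cgcagtgataaCTCAGGGccccacgcctt

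Transcripts were searched on their own strand for CTCAGGGA and for the 7-base forms within it, CTCAGGG and TCAGGGA. In Gas5 the full 8 bases occurred in 1 of 25 annotated transcripts, and in Snhg12 the form CTCAGGG occurred in 7 of 10. No transcript of Snhg1, Snhg3, Snhg5, Snhg6, Snhg8 or Snhg15 held any of the 3. A site of any form was in 2 of 8 host genes (25%), beside 22.7% of the 569 tested long noncoding RNA genes. Gas5 and Snhg12, the 2 genes with a site, were at -0.34 each, and Snhg8, without one, at -0.35. The Gas5 site lies upstream of the start site with the scored run (chr1:161035166), so RNA that begins there does not hold it. The Gas5 value is for the whole gene and does not separate transcripts with the site from those without.

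Gas5 and Snhg1 each start head to head with a protein-coding gene. Zbtb37, a zinc finger gene whose start lies 427 bases from that of Gas5 on the other strand, was at 1.82, 1.86 and 4.5 FPKM in the controls and 3.07, 3.1 and 4.54 FPKM with the mimic. Its log2 fold change was 0.35 (SE 0.28, limma adjusted p = 0.605), opposite in sign to Gas5, and without control 3 it was 0.67 (adjusted p = 0.0317). Once the trend with length and GC was taken out it was 0.00066. Slc3a2, the heavy chain of a cell-surface amino acid transporter, starts 106 bases from Snhg1. It was at 30.7, 30.1 and 16.4 FPKM in the controls and 18.2, 15.9 and 16.7 FPKM with the mimic, so control 3 lay among the mimic libraries. Its log2 fold change was -0.53 (SE 0.23, limma adjusted p = 0.389) against 0.016 for Snhg1, and without control 3 it was -0.81 (adjusted p = 0.00524) against 0.16.

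Noncoding snoRNA hosts outside the 8 that were found by symbol showed no shared direction. Of 15 listed, 9 had a row under the listed symbol and 7 were tested. A listed gene held under another symbol would be missed here. Of the 7, 0 passed, 3 had a positive and 4 a negative log2 fold change, and their median was -0.045. Zfas1, a TOP-type host, was at 21.6, 27.1 and 31.5 FPKM in the controls and 22.2, 21.8 and 21.2 FPKM with the mimic (-0.27, limma adjusted p = 0.467), with every mimic library below controls 2 and 3 but not below control 1. Epb41l4aos was at 30, 36.2 and 17.9 FPKM in the controls and 17.5 to 19.2 FPKM with the mimic (-0.55, adjusted p = 0.384). Without control 3, 1 of the 7 was called lower, Epb41l4aos at -0.83 (adjusted p = 0.00608), and 1 higher, Snhg10 at 0.54 (adjusted p = 0.0451), beside 12.2% and 11.6% of all tested genes, and the median was 0.14. Snhg20 was at -0.069, Snhg17 at -0.045, Dancr at 0.1, Snhg10 at 0.23 and Snhg18 at 0.4, with adjusted p of 0.537 to 0.912. Snhg9 and Snhg14 were below the 1 FPKM minimum. Control 3 was the highest library for 4 of these 7.

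The proteins that act on host-gene products were set beside them from lists written down by function. Of 8 core snoRNP proteins (the partners of mature snoRNAs), 0 passed and 7 were lower, with a median of -0.22. Fbl, the methyltransferase of box C/D particles, was at -0.45 (limma adjusted p = 0.371), and Nop10 and Nhp2 of the H/ACA particle at -0.44 and -0.54. Snu13, which binds the C and D boxes, was at 26.9 to 31.2 FPKM in the controls and 17.8 to 25.5 FPKM with the mimic, without overlap (-0.33, adjusted p = 0.414). Nhp2 (adjusted p = 0.652) ran from -1.15 without control 3 to -0.21 without control 2. Control 3 was highest for 0 of these 8 genes. Without it 3 of the 8 were called lower, beside 12.2% of all tested genes, and the median was -0.5, but without control 2 it was -0.091 and without mimic 3 it was -0.056.

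Of 11 tested snoRNP assembly factors 0 passed, 3 were higher and 8 lower, and the median was -0.031 (without control 3, -0.42). The 2 with groups that did not overlap (7.49% of all tested genes were lower in this way) were Ruvbl2 at -0.49 and Pih1d1 at -0.45, both parts of the chaperone machinery for box C/D particles (limma adjusted p = 0.332 each), while Tgs1, a cap methyltransferase, was at 0.3 and Naf1, an H/ACA assembly factor, at 0.23. Of 17 nonsense-mediated decay genes 0 passed, 6 were higher and 11 lower, with a median of -0.045. Without control 3 the median was -0.2, with 1 called higher and 2 lower, beside 11.6% and 12.2% of all tested genes. Smg1, the kinase of Upf1, was at 16.9 to 23.0 FPKM in the controls and 25.5 to 26.4 FPKM with the mimic (0.45, limma adjusted p = 0.332). Smg9, its partner, was at -0.4, Upf3b at -0.3 and Dhx34 at -0.29. Once the length and GC trend was removed, Smg1 was at 0.15, Smg9 at -0.2 and Dhx34 at -0.13, while Upf3b was at -0.45. Pih1d1 was then at -0.2, Ruvbl2 at -0.29, Tgs1 at 0.097 and Naf1 at 0.23. Of 16 tested TOP mRNAs outside the ribosomal proteins 0 passed, 2 were higher and 14 lower, with a median of -0.17. Eef1g was at -0.43, Eef1d at -0.31, Eif3f at -0.3 and Rack1 at -0.21, none of which passed, and control 3 was highest for 4 of the 16.

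**Figure D4:**
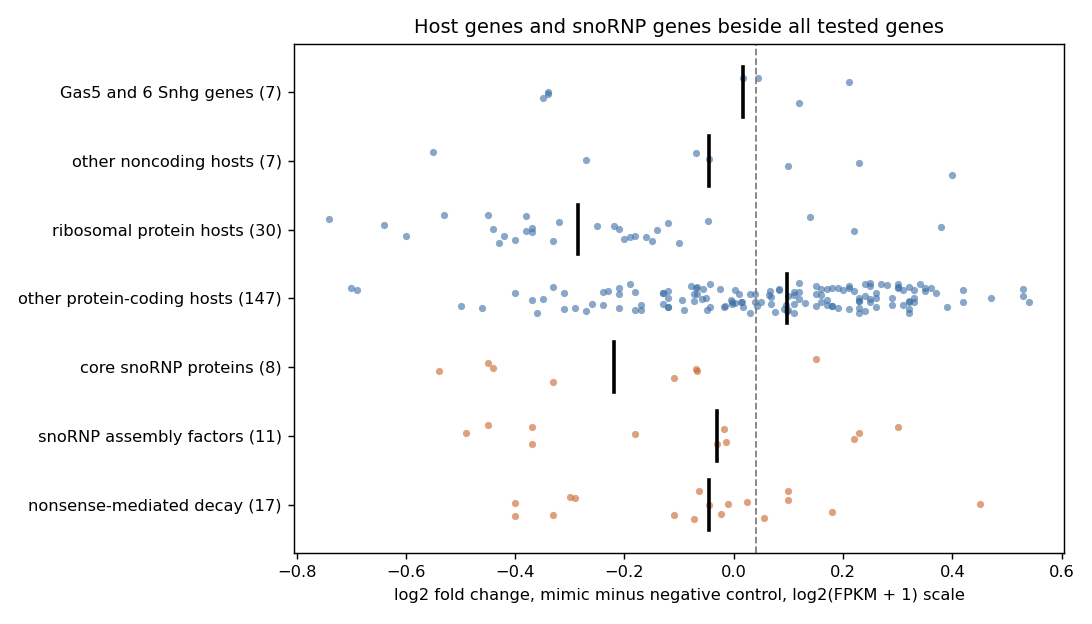
Log2 fold change of every tested gene in each list, mimic minus negative control; points are genes (shifted up or down at random so that they can be seen), black bars are list medians, the dashed line is the median of all tested genes (0.041), and the number of genes stands in brackets. Host genes are in blue and protein factors in orange; the ribosomal protein hosts have a median of -0.28 and the 7 Gas5 and Snhg genes one of 0.016.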

How the data were processed

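RNA-seq of 6 samples was used as the gene-level FPKM table deposited by the authors. Per the submitters' processing notes, the tools include fastp, HISAT2 and DESeq2 and the build is mm10. Versions, counter, annotation and strand setting: not given in the sources used here. IDs were matched to GENCODE M21 (16582 of 16665). From those FPKM values, log2(FPKM + 1) was fitted in limma 3.58.1 (R 4.3.3; trend, two-sided, Benjamini-Hochberg over genes with a mean of at least 1 FPKM), with mimic against negative control and no covariate. Fragments were recovered from FPKM steps and exon length; 98.5 to 99.0% of values worth at most 20 fragments were whole to within 0.1. The length and GC trend was a spline with 4 degrees of freedom in each library's deviations. Library weights used limma's gene-by-gene method. The script was tested on simulated data. Members and lists were chosen with earlier results of these data known. Named genes were the members, the listed noncoding hosts with a row, head-to-head partners (starts within 1000 bases), up to 4 genes of smallest p per other list, and the 5 most alike in profile; some of these are not reported here. Same-numbered samples deviated together (r from 0.183 to 0.339 over 3 pairs), and a fit that paired the samples by number, as a block, was also run. The main fit, with its intervals and p-values, leaves this pairing out. With the block, limma's adjusted p of the host genes ran from 0.271 for Gas5 to 0.97 for Snhg1. The pairing rests on the data, not on the labels, and control 2 with mimic 1 also reached 0.308. No 2 libraries were duplicates.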

Additional observations from a re-analysis of the deposited data

How the results depend on the processing

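The number of tested genes passing an adjusted p of 0.05 was 0 under the pseudocount, filter, scaling, quantile, voom, replicate block and trend settings, and with any library but control 3 left out. It ranged from 0 to 2412 over the fits that each left out 1 library, was 4808 with library weights and 385 with the trend removed and control 3 left out. The host genes passing numbered 0 to 2 when 1 library was left out, 2 with library weights and 1 with the trend and control 3 removed together. The replicate block changed no call: 0 genes and 0 host genes passed with it, with or without the trend.

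The median of the 7 host genes (0.016) ran from -0.16 to 0.096 when 1 library was left out. Gas5 (-0.48 to -0.27), Snhg8 (-0.61 to -0.11) and Snhg12 (-0.53 to -0.087) had a negative sign in every setting run. Snhg1 reversed with upper quartile scaling (-0.0012), with the trend removed (-0.14, also with the replicate block), and with the trend and control 3 removed (-0.08). Snhg6 reversed with the trend removed (-0.049, also with the replicate block) and Snhg15 with library weights (-0.059). Leaving out 1 library turned Snhg1 to as low as -0.09 (range -0.09 to 0.16), Snhg5 to -0.0091 (range -0.0091 to 0.37), Snhg6 to -0.16 (range -0.16 to 0.42), Dancr to -0.041 (range -0.041 to 0.29) and Snhg20 to 0.14 (range -0.24 to 0.14). Without control 1, Snhg1 was at -0.09, Snhg5 at -0.0091, Snhg6 at -0.16, Snhg17 at 0.025 and Dancr at -0.041; without control 2, Snhg1 was at -0.022, Snhg5 at -0.0048 and Snhg6 at -0.12. Without mimic 2, Snhg1 was at -0.063 and Snhg6 at -0.064, and without mimic 3 Snhg6 was at -0.047. Snhg20 reversed with library weights (0.011), without control 3 (0.14), without mimic 1 (0.026), without mimic 2 (0.0056), with the trend removed (0.061) and with both the trend and control 3 removed (0.39). Snhg18 reversed with library weights (-0.012), Snhg17 with the trend and control 3 removed (0.006) and Rack1 with quantile normalisation (0.018). The cause was not tested.

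Medians that moved were those of the other noncoding hosts (-0.17 at a minimum of 5 FPKM, 0.14 without control 3, 0.3 also with the trend removed), the annotated noncoding hosts (-0.27 at 5 FPKM), TOP mRNAs (0.05 with quantile normalisation), ribosomal protein hosts (-0.12 with quantile normalisation, -0.29 to -0.21 when 1 library was left out, -0.13 with the trend and control 3 removed), other protein-coding hosts (-0.028 with the trend removed, -0.015 also without control 3) and snoRNP assembly (-0.42 to -0.017 when 1 library was left out). With 3 libraries a group and 132 to 2045 fragments per host gene and library, the 95% intervals of Snhg6 (-0.72 to 0.81) and Snhg12 (-0.91 to 0.23) leave changes of the size of Gas5 undetectable.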

Other observations

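Protein-coding snoRNA hosts, found through the annotation as genes with a snoRNA in an intron on the same strand, fell into unlike sets, and 0 of the 177 tested passed an adjusted p of 0.05 in limma. Of the 30 ribosomal protein hosts 27 were lower and 3 higher, with a median log2 fold change of -0.28. Rps3 was at 343 to 390 FPKM in the controls and 261 to 284 FPKM with the mimic (-0.42), Rpl13 at 463 to 749 and 390 to 425 FPKM (-0.6) and Rps16 at 944 to 1129 and 761 to 821 FPKM (-0.38), each with an adjusted p of 0.332. In 11 of the 30 all mimic libraries lay below all controls, beside 7.49% of all tested genes. Control 3 was the highest library for 13 of the 30.

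Of the 147 other protein-coding hosts 95 were higher and 52 lower, with a median of 0.098 that was -0.028 once the length and GC trend was removed. Of the 147, 29 were higher and 7 lower without overlap, beside 12.6% and 7.49% of all tested genes. Tmem245 was at 14.2 to 14.9 FPKM in the controls and 19.6 to 23.0 FPKM with the mimic (0.54), and Vps13b at 8.09 to 9.21 and 11.8 to 12.5 FPKM (0.47). Sf3b4, a subunit of the spliceosome, was at 19.2 to 24.6 and 14.3 to 15.9 FPKM (-0.5), and Ranbp1, a regulator of the Ran GTPase, at 18.7 to 22 and 8.86 to 14.2 FPKM (-0.69). Each had a limma adjusted p of 0.332. With the length and GC trend removed, Tmem245 was at 0.25, Vps13b at 0.21, Sf3b4 at -0.3 and Ranbp1 at -0.64. Among 13 tested noncoding hosts from the annotation, some of them also in the list by name, 5 were higher and 8 lower, with a median of -0.063. The 2 with groups that did not overlap, beside 7.49% lower and 12.6% higher in this way over all tested genes, were 1810032O08Rik, at 4.09 to 4.68 FPKM in the controls and 2.42 to 2.75 FPKM with the mimic (-0.59), and 1110038B12Rik, at 22.4 to 22.9 and 16.6 to 18.9 FPKM (-0.34). In both, unlike in the 7 host genes chosen for this report, control 3 lay between the other controls. 2410006H16Rik was at 85.6, 105 and 36.1 FPKM in the controls and 35.3 to 49.3 FPKM with the mimic (-0.74), with -1.19 (adjusted p = 0.00649) without control 3 and -0.43 without control 2. 2700038G22Rik was at 0.28.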
